A study of Mus musculus with 24 samples.

Results

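The estrogen-related receptors (ERR), their PGC-1 coactivators and the nuclear genes that build the mitochondrial transcription machinery were followed in mouse brown fat with and without HDAC3, before and after a short spell of cold. The set holds 10 genes chosen by symbol, Esrra, Esrrb, Esrrg, Ppargc1a, Ppargc1b, Nrf1, Gabpa, Tfam, Tfb2m and Polrmt, out of 13162 genes listed in any of the 5 deposited tables. Of these, 9 were listed in all 5 tables. Esrrb was listed in none, and the tables hold a gene only where its mean reached at least 0.5 RPKM (reads divided by the length of the gene and by the library total) in the higher group, so no value is given for it. RNA came from interscapular brown adipose tissue of male mice on C57BL/6J, aged 10 to 12 weeks and taken at ZT10 of a 12 h light cycle. Knockout (KO) mice were HDAC3 floxed with Ucp1-cre, a Cre expressed where the brown fat gene Ucp1 is on, and Control mice were HDAC3 floxed without the Cre, so all groups carried the floxed alleles. Mice of each genotype either stayed at 22 °C throughout or spent 24 h at 15 °C, followed by recovery at 22 °C lasting 24 h or 7 d. With 4 libraries in each of the 6 groups there were 24 in all, and 24 h and 7 d below mean the time of recovery. The comparisons ask what HDAC3 loss does to these genes at room temperature, and whether the difference between genotypes persists after cold.

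ERR alpha (Esrra) and ERR gamma (Esrrg) are orphan nuclear receptors that bind a short DNA element at genes of oxidative metabolism. Their activity depends on coactivators, chiefly PGC-1 alpha (Ppargc1a) and PGC-1 beta (Ppargc1b). Ppargc1a is induced in brown fat by cold through beta-adrenergic signalling and cAMP. Nuclear respiratory factor 1 (Nrf1) and GA-binding protein alpha (Gabpa) bind the promoters of many respiratory chain genes and of the mitochondrial transcription genes. Those are Tfam, which packs mitochondrial DNA and opens its promoters, Tfb2m, which melts the promoter, and Polrmt, the mitochondrial RNA polymerase.

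Promoter windows from 250 bases before to 50 bases after the transcription start were taken from RefSeq on GRCm38.p6 and searched on both strands for 4 exact motifs. Windows were found for 9 of the 10 named genes, 14 in all, because some genes have several starts. The NRF1 site GCGCANGCG was in 3 of these 14 windows (those of Esrra, Tfb2m and Polrmt) and in 6.25% of all 32851 windows. The GABP site CCGGAAGT was in 1 of the 14 (that of Tfam) and in 3.89% of all windows. Neither the ERR element TNAAGGTCA (1.28% of all windows) nor the cAMP response element TGACGTCA (1.79%) was in any window of a member. All 4 genes with a match were higher in KO at 24 h of recovery than at 22 °C in the authors' deposited table. Of all genes 22.1% were higher and 19.8% lower in that comparison. Esrrg (4.07-fold), Ppargc1a (2.58-fold) and Gabpa (2.31-fold), whose windows held no match, were also higher. So was Ppargc1b (2.37-fold), for which no window was found. Nrf1, also without a match, was not (log2 fold change -0.13, adjusted p = 0.55). The part of a match in the rise was not tested. The 4 stretches come from the windows with a match. Each runs 5′ to 3′ along the gene from 150 bases before the start through the first 24 bases of the transcript, with the matched letters in capitals. All 4 genes lie on the minus strand, at chr19:6921785-6921958 for Esrra, chr10:71238021-71238194 for Tfam, chr1:179546253-179546426 for Tfb2m and chr10:79746558-79746731 for Polrmt.
Esrra: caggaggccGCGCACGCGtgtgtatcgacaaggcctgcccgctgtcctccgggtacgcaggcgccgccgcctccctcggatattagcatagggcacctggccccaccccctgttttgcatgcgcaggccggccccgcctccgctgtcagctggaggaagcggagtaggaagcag
Tfam: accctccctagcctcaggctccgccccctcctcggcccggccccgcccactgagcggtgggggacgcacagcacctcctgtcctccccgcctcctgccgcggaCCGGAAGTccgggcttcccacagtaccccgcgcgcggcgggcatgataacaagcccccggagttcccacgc
Tfb2m: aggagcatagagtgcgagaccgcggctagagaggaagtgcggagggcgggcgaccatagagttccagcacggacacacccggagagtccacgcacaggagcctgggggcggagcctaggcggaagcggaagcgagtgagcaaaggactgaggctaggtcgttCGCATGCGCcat
Polrmt: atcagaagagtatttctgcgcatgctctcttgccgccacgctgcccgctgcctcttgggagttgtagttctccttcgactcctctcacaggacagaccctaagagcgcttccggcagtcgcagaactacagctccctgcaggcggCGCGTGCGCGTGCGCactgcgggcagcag
The Esrra match began 141 bases before the start and the Tfam match 47 bases before it. In Polrmt a pair of NRF1 matches overlapped across the start, and in Tfb2m the match lay just after it. A match is only a match of letters, and no binding was measured here.

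The deposited tables give group means and the authors' edgeR tests, but no library values. Because the means are printed to 15 digits, the whole read counts of the 4 libraries behind a mean could be solved for, and library values below are such recovered values. Library totals recovered in this way ranged from 4637903 to 12538811 reads, and members rested on 37 to 1605 reads per library. Libraries are numbered by falling total within a group, which does not tie them to a sample label. Hdac3 itself, read over the whole gene in whole tissue, averaged 8.57 RPKM in KO against 26.1 in Control at 22 °C, 6.43 against 27.1 at 24 h and 7.43 against 25.4 at 7 d, with no overlap of libraries at any time. Ucp1 averaged 32.8 RPKM in KO at 22 °C against 1607 in Control, and 3884 against 4966 after 24 h of recovery. Of 9 brown adipocyte markers 6 were lower and 1 higher in KO at 22 °C, and all 6 general adipocyte markers were higher. Of all listed genes 18% were lower and 16.3% higher in that comparison. The general adipocyte markers summed to 26190 RPKM in KO against 12261 in Control, of which Fabp4 alone made up 16522 and 8202. Libraries 1 and 2 of the Control group at 24 h stood apart, with 70.5 and 63.1 RPKM summed over 6 macrophage markers against 17.0 to 36.4 in the other libraries. Skeletal muscle markers summed to 754 RPKM in KO and 894 in Control at 7 d, against 163 to 281 in the other groups. In the deposited comparisons 0 of 12 were past the threshold. None of those sets 7 d against an earlier time, so they do not test this rise. The part of these cells in the results below was not tested, other than by leaving out both macrophage-rich libraries. The extract protocol speaks of biological replicates without tying a library to a mouse, so p-values measure the spread between libraries.

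At 22 °C, 7 of the 9 listed genes were lower in KO than in Control, 1 was higher (Nrf1) and Tfb2m did not pass the threshold, an adjusted p under 0.05 in the authors' deposited table. Over all listed genes 18% were lower and 16.3% higher in that comparison. In order of the deposited fold, Esrrg was 5.06-fold lower, Ppargc1b 2.83-fold, Ppargc1a 2.72-fold, Polrmt 2.46-fold, Esrra 2.11-fold, Gabpa 1.43-fold and Tfam 1.40-fold. In a bulk tissue, fewer cells of a type and less RNA per cell cannot be told apart. Library values in RPKM carry no normalization factors. Ratios of means sat below the deposited fold changes by a median of -0.238 log2 at 22 °C. The medians were -0.140 at 24 h and -0.066 at 7 d, so the deposited changes are the ones relative to all genes. The share of all genes whose libraries do not overlap between groups was not counted.

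At 24 h of recovery the picture between genotypes was different, with 4 of 9 genes higher in KO (Esrrg, Gabpa, Tfam and Tfb2m) and 0 lower in the deposited table, against 10.5% higher and 7.96% lower of all listed genes. At 7 d only Tfb2m was past the threshold and higher in KO, against 9.18% higher and 6.14% lower of all genes. The change of the KO effect was tested directly, by subtracting one deposited log2 fold change from the other and dividing by an error rebuilt from the deposited p-values. From 22 °C to 24 h it moved upward for 7 of 9 genes, all but Ppargc1a and Nrf1, where 10.8% of all genes moved upward and 7.39% downward. Between 22 °C and 7 d, 6 of 9 moved upward, all but Ppargc1a, Nrf1 and Tfb2m, against 9.53% upward and 5.29% downward of all genes. From 24 h to 7 d the KO effect of 0 of 9 genes changed past the threshold, where 0.201% of all genes did. Limma on the recovered libraries likewise called 0 of 9, and at an unadjusted p under 0.05 Gabpa was at 0.027 in the rebuilt test and Gabpa and Tfam at 0.0040 and 0.035 in limma.

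**Figure D1:**
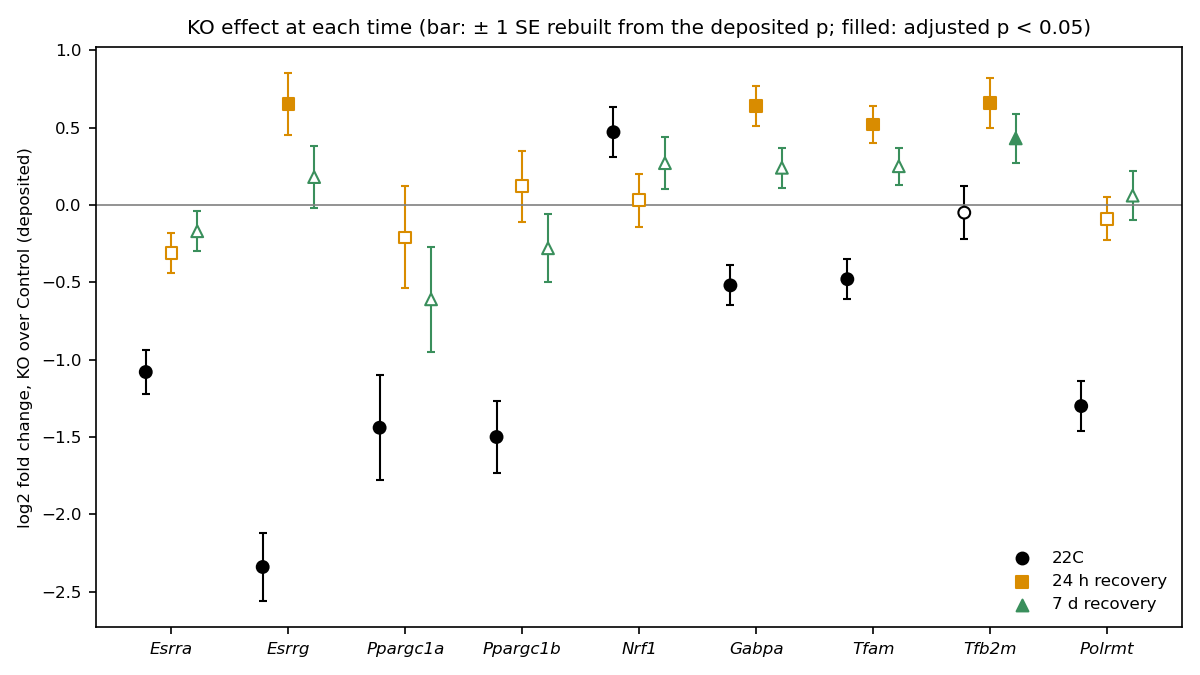
Deposited log2 fold change of KO over Control (vertical axis) for the 9 listed genes at 22 °C, 24 h and 7 d of recovery, with bars of 1 standard error rebuilt from the deposited p and filled markers for an adjusted p under 0.05. At 22 °C the points of 7 genes lie below 0 and pass the threshold, while the recovery points lie nearer to 0 or above it.

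Within the KO, 8 of 9 genes were higher at 24 h of recovery than at 22 °C, where 22.1% of all genes were higher and 19.8% lower in the authors' deposited table. The deposited folds were 4.07 for Esrrg, 3.02 for Polrmt, 2.58 for Ppargc1a, 2.37 for Ppargc1b, 2.31 for Gabpa, 2.27 for Tfb2m, 2.26 for Esrra and 2.21 for Tfam. Nrf1 did not pass the threshold (log2 fold change -0.13, adjusted p = 0.55). Within Control only 4 of 9 did, Esrra, Tfb2m and Polrmt higher and Esrrg lower, against 13.1% higher and 8.67% lower of all genes. These comparisons share the 22 °C and 24 h libraries with the comparisons of genotype, and so are not separate support for them.

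The authors deposited no test of 7 d against the earlier times, so these were run with limma on log2 RPKM of the recovered libraries. In KO, 7 of 9 genes stayed higher at 7 d than at 22 °C (all but Ppargc1a and Nrf1), where 23.5% of all genes were higher and 20.5% lower. In Control 1 of 9 was higher at 7 d than at 22 °C (Tfb2m), where 9.71% of genes were higher and 7.09% lower. Between 7 d and 24 h, Gabpa was lower at 7 d in KO, 1 of 9 where 5.18% of genes changed. At an unadjusted p in limma, Ppargc1a (0.013), Ppargc1b (0.023) and Tfam (0.0068) were also under 0.05 in KO, all lower at 7 d. In Control 0 of 9 changed between 7 d and 24 h in limma, where 3.84% of all genes did, and at an unadjusted p Esrrg (0.019), Nrf1 (0.0046) and Polrmt (0.029) were under 0.05.

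**Figure D2:**
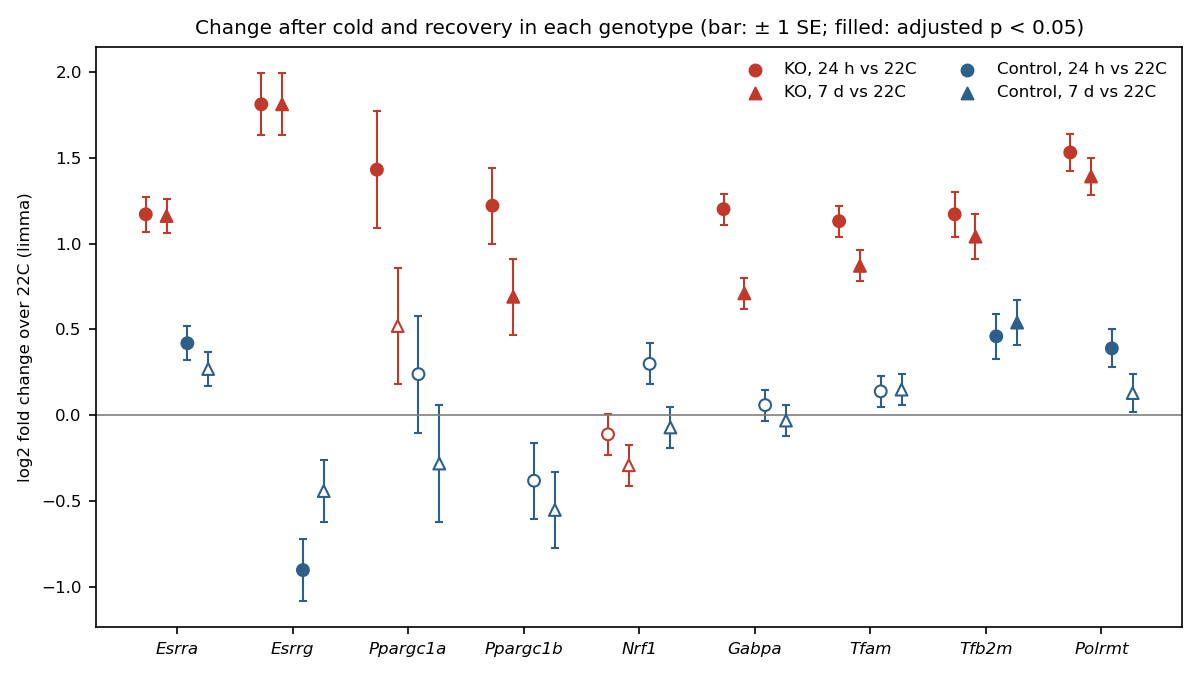
Log2 fold change over 22 °C by limma (vertical axis) for each listed gene, in KO (red) and in Control (blue), at 24 h (circles) and 7 d (triangles), with bars of 1 standard error and filled markers for an adjusted p under 0.05. In KO all genes but Nrf1 lie above 0 at both times, and in Control Esrrg and Ppargc1b lie below 0 at both times, as do Ppargc1a, Nrf1 and Gabpa at 7 d.

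Esrra, the most abundant receptor of the set, averaged 42.7 RPKM over the 6 group means. At 22 °C its KO libraries were at 16.1, 19.7, 19.3 and 17.99 RPKM, against 43.0, 42.2, 53.3 and 42.6 RPKM in Control. The KO libraries all lay below the Control libraries, and 1 Control library was well above the other 3. The deposited fold change was -1.08 log2 with an adjusted p of 4.8e-14, and limma gave -0.94 with a standard error of 0.08 without the high Control library. At 24 h Esrra was at 43.0, 45.6, 38.3 and 41.9 RPKM in KO and 57.4, 55.1, 59.6 and 58.3 in Control. These groups did not overlap, but the deposited adjusted p was 0.082 (log2 fold change -0.31). Limma gave -0.30 with an adjusted p of 0.030. That value rose above 0.05 without library 3 or 4 of Control (0.095 and 0.082) or of KO (0.096 and 0.051) at 24 h. At 7 d the groups overlapped, with 39.0 to 47.3 RPKM in KO and 45.3 to 57.1 RPKM in Control (adjusted p = 0.46 in the deposited table). Esrra thus rose to 42.2 ± 3.0 RPKM at 24 h in KO, against 18.3 ± 1.6 RPKM at 22 °C in KO (SD, n = 4 each). In Control it rose to 57.6 ± 1.9 RPKM at 24 h, against 45.3 ± 5.4 RPKM at 22 °C (1.32-fold as deposited, adjusted p = 0.015). At 7 d in Control the limma adjusted p over 22 °C was 0.059, and 0.0029 without library 3 at 22 °C or 0.041 without library 4 at 7 d. The KO effect moved upward by 0.77 ± 0.19 log2 (SE) to 24 h and by 0.91 ± 0.19 to 7 d, with adjusted p of 6.8e-04 and 5.8e-05.

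Esrrg is the less abundant of the 2 listed receptors and was the member with the widest range, its highest group mean 5.99 times its lowest. At 22 °C the KO libraries were at 0.675, 0.940, 1.43 and 0.930 RPKM, against 6.14, 7.59, 4.32 and 5.76 RPKM in Control. The highest KO library was well under the lowest Control library, and the deposited log2 fold change was -2.34 (adjusted p = 4.5e-25). At 24 h the order was turned round, with 3.35, 5.48, 3.70 and 4.09 RPKM in KO and 2.67, 2.87, 3.31 and 2.72 RPKM in Control. The groups did not overlap by a narrow margin, and KO was 1.57-fold higher in the deposited table (adjusted p = 0.011). That call rested on few libraries in limma, where the adjusted p of 0.017 became 0.055 without library 1 of Control, 0.072 without library 2 of KO at 24 h, and 0.059 with no scaling of libraries. Leaving out both macrophage-rich Control libraries gave 1.41-fold with an adjusted p of 0.14. At 7 d Esrrg ranged from 3.43 to 5.55 RPKM in KO and from 3.52 to 4.202 RPKM in Control, and the groups overlapped (adjusted p = 0.67).

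Esrrg moved in opposite directions in the 2 genotypes after cold. In KO it was 4.07-fold higher at 24 h than at 22 °C (adjusted p = 4.2e-19 in the deposited table), with all 4 libraries at 24 h above all 4 at 22 °C. In Control it was 1.95-fold lower at 24 h than at 22 °C (adjusted p = 3.8e-05), again with no overlap. Without the macrophage-rich libraries the Control value was -0.77 log2 in limma with an adjusted p of 0.024. The KO effect moved upward by 2.99 ± 0.30 log2 (SE) from 22 °C to 24 h (adjusted p = 2.9e-21), and by 2.51 ± 0.29 to 7 d (adjusted p = 5.9e-15). At 7 d Esrrg in Control was at -0.44 ± 0.18 log2 (SE) of its 22 °C level, which did not pass the threshold (adjusted p = 0.10 in limma). It was 0.049 without library 3 of Control at 22 °C and 0.038 with no scaling of libraries.

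Ppargc1a, the cold-inducible coactivator, varied most between libraries of a group. Its within-group SD was 0.55 log2, above that of 96.8% of the 2334 genes of like level (median 0.20). At 22 °C the KO libraries were at 5.01, 1.62, 2.59 and 1.34 RPKM, and the Control libraries at 6.76, 5.00, 7.40 and 15.2 RPKM. The highest KO library and the lowest Control library were nearly level, so the groups just overlapped, and 1 Control library was above any other in the series. The deposited fold change was -1.44 log2 (adjusted p = 1.5e-04), and limma without the highest Control library gave -1.11 with an adjusted p of 0.012. After 24 h of recovery Ppargc1a was at 10.1, 7.62, 5.38 and 5.15 RPKM in KO and at 11.4, 7.71, 9.52 and 7.58 RPKM in Control. These overlapped (adjusted p = 0.76), and the limma difference was -0.23 log2, with an interval of about 2 standard errors on each side from -0.89 to 0.43. At 7 d the KO libraries, 2.06 to 4.57 RPKM, all lay below the Control libraries, 4.79 to 7.17 RPKM, yet the difference of -0.61 log2 did not pass the threshold (adjusted p = 0.24 in the deposited table).

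In KO, Ppargc1a was 2.58-fold higher at 24 h than at 22 °C (adjusted p = 2.9e-04), and the group at 24 h averaged 7.07 ± 2.3 RPKM against 2.64 ± 1.7 RPKM at 22 °C (SD, n = 4 each). At 7 d it averaged 3.74 ± 1.2 RPKM and did not differ from 22 °C past the threshold (limma adjusted p = 0.23, or 0.029 without library 1 of KO at 22 °C). In Control it did not change at 24 h past the threshold (log2 fold change 0.13, adjusted p = 0.85). The shift of the KO effect from 22 °C to 24 h was 1.23 ± 0.47 log2 (SE) and missed the threshold, at an adjusted p of 0.051. Limma gave an adjusted p of 0.090 for this shift, and 0.045 without library 2 of Control or 0.015 without library 1 of KO at 22 °C.

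Ppargc1b, the related coactivator that is less tied to cold, differed more cleanly at 22 °C. The KO libraries were at 4.48, 4.88, 6.24 and 4.10 RPKM, against 15.8, 18.04, 15.5 and 16.5 RPKM in Control. All KO libraries lay far below the Control libraries (2.83-fold lower, adjusted p = 1.1e-09 in the deposited table). At 24 h Ppargc1b was at 12.2, 14.2, 10.4 and 11.2 RPKM in KO and at 11.1, 10.1, 12.8 and 14.4 RPKM in Control. The ranges nearly coincided, and the difference was 0.12 log2 (adjusted p = 0.82). At 7 d it was at 8.42, 5.82, 9.82 and 9.92 RPKM in KO, against 7.48, 8.48, 9.36 and 18.3 RPKM in Control. Here 1 Control library stood far above the other 3, and the limma difference was -0.22 log2 with it and 0.05 without it, with neither past the threshold. The same library decided the comparison of 7 d with 22 °C in Control, which was -0.55 log2 with an adjusted p of 0.086 in limma and -0.83 with 0.0043 without it. With no scaling of libraries it was -0.67 with 0.029. The KO effect on Ppargc1b moved upward by 1.62 ± 0.32 log2 (SE) to 24 h (adjusted p = 1.4e-05) and by 1.22 ± 0.32 to 7 d (adjusted p = 0.0021).

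Nrf1 had the narrowest range of the 9 listed genes, with group means from 2.11 to 2.93 RPKM. At 22 °C it was at 3.11, 3.42, 2.58 and 2.47 RPKM in KO and at 3.16, 2.56, 1.93 and 2.21 RPKM in Control. The libraries overlapped, and the higher level in KO (1.38-fold as deposited, adjusted p = 0.011) depended on the scaling, since limma with no scaling of libraries gave 0.22 log2 with an adjusted p of 0.20. Nrf1 passed the threshold in none of the other 4 deposited comparisons, with adjusted p from 0.15 to 0.97. Its level at 7 d against 22 °C in KO was -0.29 log2 by limma with an adjusted p of 0.052, which was under 0.05 (0.027 to 0.046) on leaving out library 1 or 3 of Control or library 4 of KO at 22 °C, or library 1 of KO at 7 d. It was also under 0.05, at 0.040, when genes averaging under 1 RPKM were left out of the fit. Without library 1 of Control at 22 °C, limma also called Nrf1 higher at 24 h in Control (adjusted p = 0.022) and its KO effect moved downward to 24 h (adjusted p = 0.037).

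Gabpa, the DNA-binding subunit of the GABP complex, crossed over between genotypes. At 22 °C it was at 11.6, 11.3, 11.4 and 10.7 RPKM in KO, against 16.7, 21.3, 19.4 and 18.5 RPKM in Control. At 24 h it was at 26.4, 24.5, 27.5 and 28.1 RPKM in KO, against 22.2, 18.4, 18.8 and 16.3 RPKM in Control. So all KO libraries were below Control at 22 °C and all above it at 24 h, with deposited changes of -0.52 log2 (adjusted p = 3.7e-04) and 0.64 log2 (adjusted p = 1.4e-05). At 7 d the KO libraries, 17.6 to 22.7 RPKM, overlapped the Control libraries, 16.4 to 19.0 RPKM (adjusted p = 0.23). The limma adjusted p there was 0.071, and 0.045 without library 1 of Control at 22 °C or 0.042 without library 3 of Control at 7 d. The KO level at 7 d, 19.3 ± 2.3 RPKM, was 1.41-fold lower by limma than the 26.6 ± 1.6 RPKM at 24 h (SD, n = 4 each, adjusted p = 0.0036). Control group means stayed between 17.1 and 19.0 RPKM over the 3 times. The KO effect moved upward by 1.16 ± 0.18 log2 (SE) to 24 h and by 0.76 ± 0.18 to 7 d (adjusted p = 1.3e-08 and 6.2e-04).

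**Figure D3:**
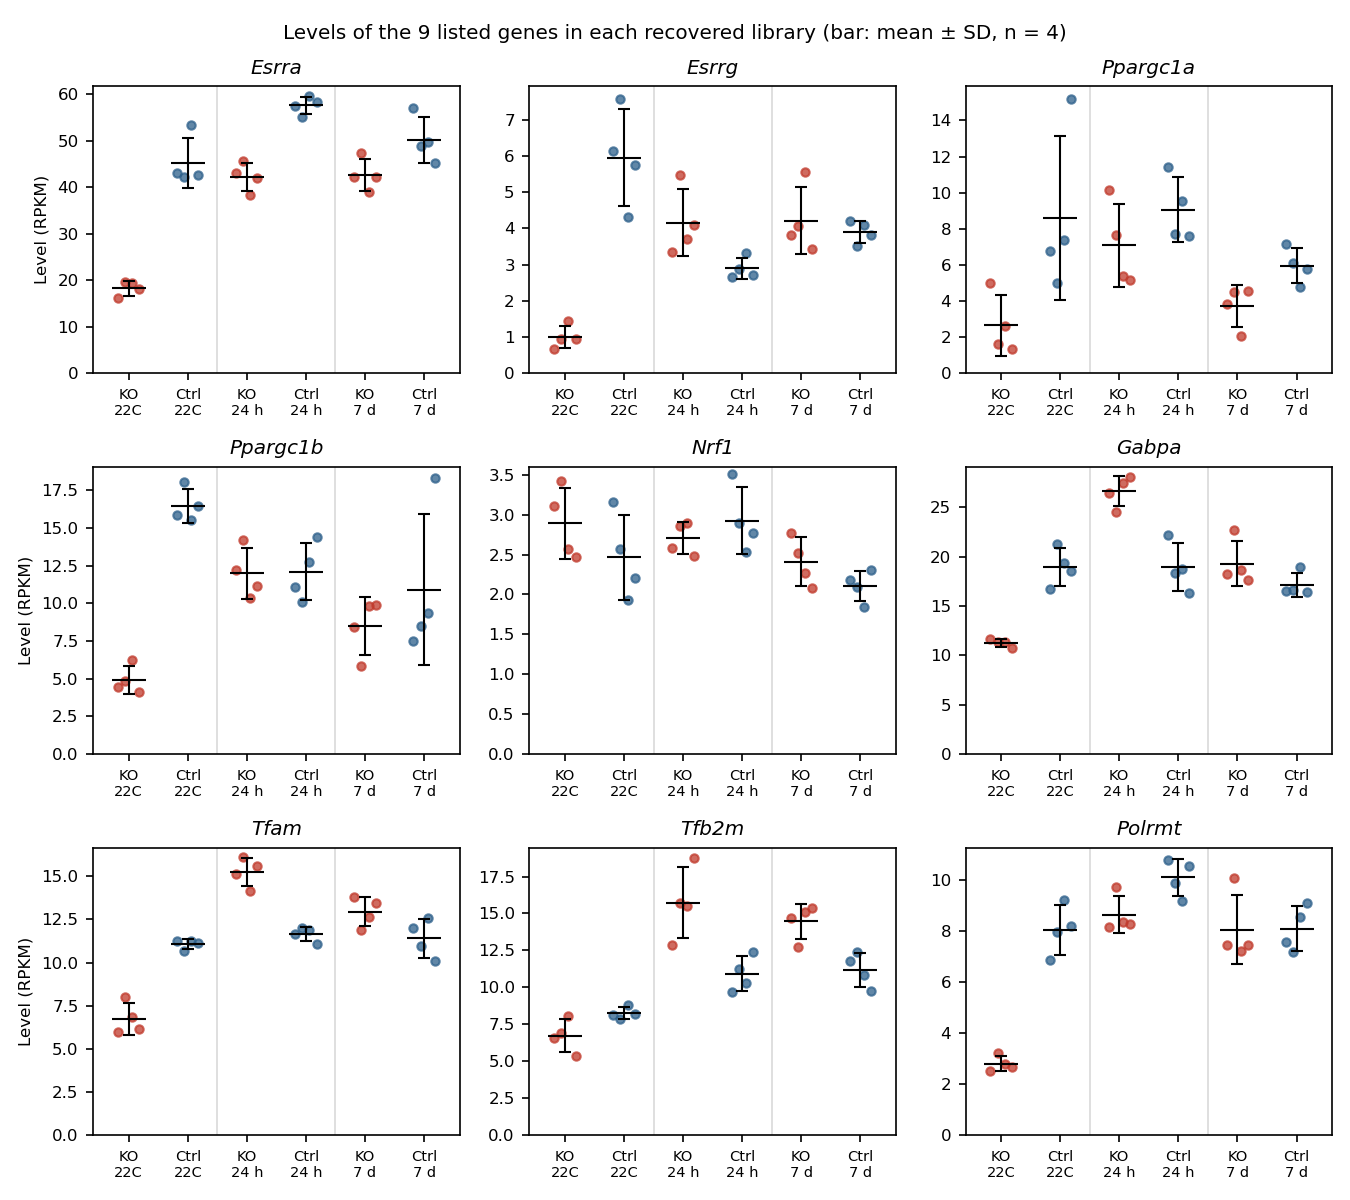
Level in RPKM (vertical axis, from 0) of each listed gene in the 4 recovered libraries of each group, KO in red and Control (Ctrl) in blue, with black bars for the mean and SD. Esrra, Esrrg, Ppargc1b, Gabpa, Tfam and Polrmt show KO libraries at 22 °C below all Control libraries at 22 °C. The values carry no normalization factors, and the share of all genes that separate in this way was not counted. Nrf1 stays between 1.84 and 3.51 RPKM throughout.

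Tfam was among the tightest genes, with a within-group SD of 0.11 log2 that only 8.11% of 1899 genes of like level were under. At 22 °C it was at 5.97, 7.98, 6.85 and 6.14 RPKM in KO, against 11.3, 10.7, 11.3 and 11.1 RPKM in Control. After 24 h it was at 15.1, 16.1, 14.2 and 15.6 RPKM in KO, against 11.7, 12.0, 11.9 and 11.1 RPKM in Control. The groups separated in opposite orders, with deposited changes of -0.48 log2 (adjusted p = 7.9e-04) at 22 °C and 0.52 log2 (adjusted p = 3.1e-04) at 24 h. Tfam in Control did not change at 24 h past the threshold (adjusted p = 0.49). At 7 d KO was at 13.0 ± 0.85 RPKM and Control at 11.4 ± 1.1 RPKM (SD, n = 4 each), with an adjusted p of 0.18 in the deposited table. Limma put the same difference at 0.25 log2 with an adjusted p of 0.041, and it rose to between 0.076 and 0.14 on leaving out library 2 or 4 of Control or library 1, 3 or 4 of KO at 7 d. The KO effect on Tfam moved upward by 1.01 ± 0.18 log2 (SE) to 24 h and by 0.73 ± 0.18 to 7 d (adjusted p = 4.4e-07 and 6.5e-04).

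Tfb2m alone showed no difference past the threshold at 22 °C and a higher level in KO at both later times. At 22 °C it was at 6.57, 6.90, 8.07 and 5.35 RPKM in KO, against 8.13, 7.82, 8.79 and 8.17 RPKM in Control. The deposited difference was -0.05 log2 (adjusted p = 0.87), and limma with no scaling of libraries gave -0.30 with an adjusted p of 0.042. At 24 h Tfb2m was at 12.9, 15.7, 15.5 and 18.8 RPKM in KO, against 9.71, 11.3, 10.3 and 12.4 RPKM in Control. At 7 d it was at 14.7, 12.7, 15.1 and 15.4 RPKM in KO, against 11.8, 12.4, 10.8 and 9.78 RPKM in Control. KO libraries lay above Control libraries at both times, by 1.58-fold (adjusted p = 4.3e-04) and 1.35-fold (adjusted p = 0.041) as deposited. The limma adjusted p at 7 d was 0.024, and between 0.056 and 0.079 without library 3 or 4 of Control or library 3 or 4 of KO. Tfb2m was also the member that stayed higher in Control, at 10.9 ± 1.2 RPKM at 24 h and 11.2 ± 1.1 RPKM at 7 d, against 8.23 ± 0.41 RPKM at 22 °C (SD, n = 4 each). Limma gave 1.46-fold for 7 d over 22 °C in Control (adjusted p = 0.0085), and the deposited fold at 24 h was 1.39 (adjusted p = 0.021, but 0.057 in limma without library 4 of Control at 24 h). The KO effect moved upward by 0.71 ± 0.23 log2 (SE) to 24 h (adjusted p = 0.015). Without the macrophage-rich libraries this shift was 0.59 log2 in limma with an adjusted p of 0.060. The shift to 7 d of 0.49 ± 0.23 missed the threshold (adjusted p = 0.15). Limma put it at an adjusted p of 0.083, at 0.034 without library 3 of KO at 22 °C and at 0.0060 with no scaling of libraries.

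Polrmt had the largest deposited difference at 22 °C among Tfam, Tfb2m and Polrmt. At 22 °C it was at 2.52, 3.21, 2.79 and 2.67 RPKM in KO, against 6.86, 7.96, 9.25 and 8.20 RPKM in Control (deposited log2 fold change -1.30, adjusted p = 4.4e-15). At 24 h it was at 8.19, 9.76, 8.38 and 8.31 RPKM in KO, against 10.8, 9.88, 9.18 and 10.6 RPKM in Control. At 7 d it was at 7.47, 10.1, 7.21 and 7.47 RPKM in KO, against 7.59, 7.20, 8.55 and 9.11 RPKM in Control. The wide gap at 22 °C gave way to overlapping groups at both later times (adjusted p = 0.78 and 0.91). In KO the level at 24 h was 3.02-fold above that at 22 °C (adjusted p = 6.3e-23). In Control it was 1.31-fold higher (adjusted p = 0.041), a call that limma lost without library 1 of Control at 22 °C (adjusted p = 0.063). The KO effect moved upward by 1.21 ± 0.21 log2 (SE) to 24 h and by 1.36 ± 0.23 to 7 d (adjusted p = 4.9e-07 and 1.4e-07).

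Genes that ERR and PGC-1 are known to drive were lower in KO at 22 °C for 23 of 26 listed, and 1 (Vegfa, an angiogenic factor) was higher. Their median log2 fold change was -1.27 in the deposited table, beside -0.01 over all genes, of which 18% were lower and 16.3% higher. Cox7a1, a subunit of cytochrome oxidase, was at 56.4 RPKM in KO against 924 in Control (adjusted p = 1.5e-77). Cpt1b, which lets fatty acids into mitochondria, was at 81.0 RPKM in KO against 408 in Control, and Idh3a of the citric acid cycle at 146 against 493. At 24 h against 22 °C in KO, 23 of 26 were higher and 1 lower (again Vegfa), beside 22.1% higher and 19.8% lower of all genes. The median of the target genes was 1.46 log2. Among them Cycs, the electron carrier cytochrome c, was 5.50-fold higher and Slc25a20, the acylcarnitine carrier, 4.97-fold higher. In Control 10 of 26 were higher and 1 lower at 24 h than at 22 °C, beside 13.1% higher and 8.67% lower of all genes. Cycs was 1.57-fold and Slc25a20 1.66-fold higher there. Between genotypes at 24 h, 4 of 26 were higher in KO (Cycs, Pdk4, Vegfa and Fabp3) and 2 lower (Sdhb and Cox7a1), with a median of 0.06 log2. These shares are near the 10.5% higher and 7.96% lower of all genes.

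**Figure D4:**
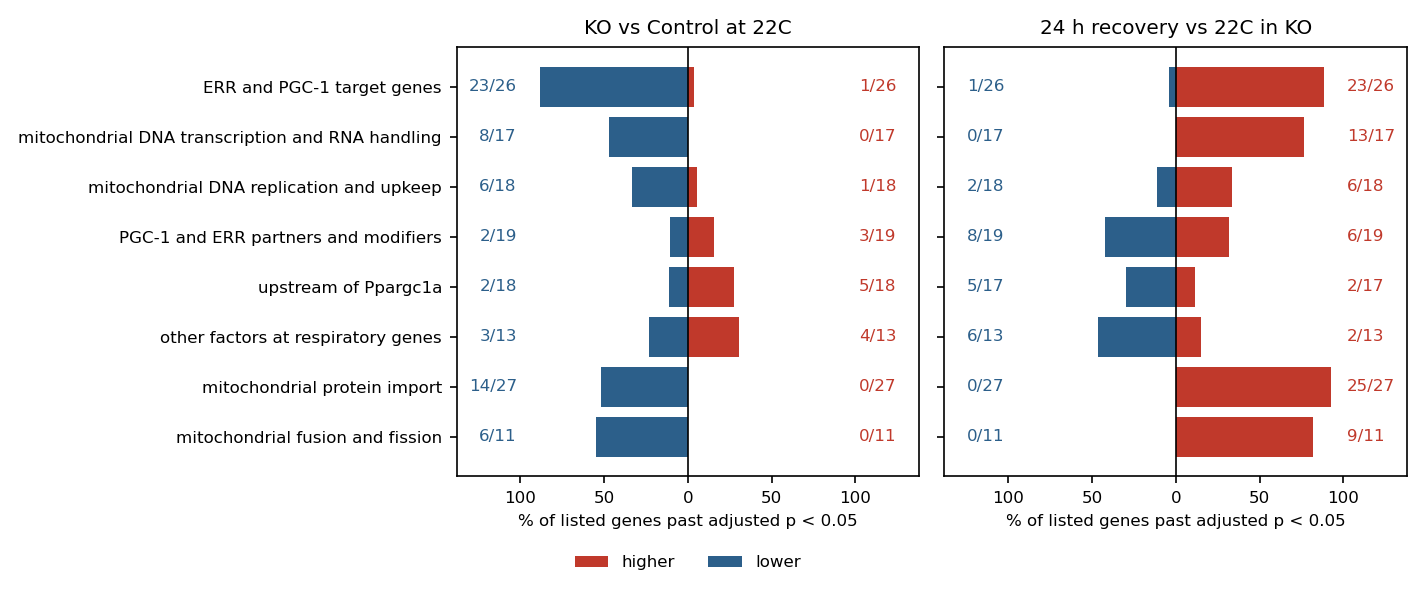
Share of each gene list (horizontal axis, percent of listed genes) past an adjusted p under 0.05 in the deposited tables, lower to the left in blue and higher to the right in red, for KO against Control at 22 °C and for 24 h against 22 °C in KO, with counts at the edges. The target genes and the protein import genes show the longest bars in the second panel, 23 of 26 and 25 of 27 higher. Of all genes 22.1% were higher in that comparison.

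Other genes of mitochondrial RNA handling had 8 of 17 members lower and 0 higher in KO at 22 °C (median -0.37 log2), and 13 of 17 higher at 24 h than at 22 °C in KO (median 0.97). Lrpprc, which stabilises mitochondrial mRNA, was at 19.4 RPKM in KO against 56.0 in Control at 22 °C. Mterf2, of the mitochondrial termination factor family, was at 1.29 against 6.48 RPKM, and the mitochondrial helicase Supv3l1 at 9.32 against 20.9 RPKM. Slirp, the partner of Lrpprc, was 3.22-fold higher at 24 h than at 22 °C in KO and Fastkd2, an RNA-binding protein, 2.64-fold. Genes of mitochondrial DNA replication and upkeep were less uniform, with 6 of 18 lower and 1 higher in KO at 22 °C, and 6 higher and 2 lower at 24 h in KO, beside 18% lower and 16.3% higher, and 22.1% higher and 19.8% lower, of all genes. Its largest changes at 22 °C were in Sucla2 (3.48-fold lower) and Tymp (3.47-fold lower), which act in nucleotide supply or the citric acid cycle, and the mitochondrial topoisomerase Top1mt was 2.04-fold lower. Peo1, the mitochondrial DNA helicase, was at 8.14 RPKM at 24 h in KO against 3.96 RPKM at 22 °C in KO, while the thymidine kinase Tk2 was 1.87-fold lower.

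Among coregulators of the receptors, 2 of 19 were lower and 3 higher in KO at 22 °C (median 0.05 log2), shares no larger than the 18% lower and 16.3% higher of all genes. Perm1, a regulator of oxidative genes induced by PGC-1 and ERR, had the widest difference of the list, 0.259 RPKM in KO against 11.2 RPKM in Control at 22 °C (37.3-fold lower, adjusted p = 2.0e-33). At 24 h Perm1 was at 10.6 RPKM in KO and 12.6 RPKM in Control (adjusted p = 0.92). The corepressors Nrip1 and Ncor1 were 3.70-fold and 1.87-fold higher in KO at 22 °C, and remained 1.84-fold and 1.67-fold higher at 24 h in the deposited tables. Flcn, a nutrient-sensing regulator, was 2.20-fold higher at 24 h than at 22 °C in KO.

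Genes upstream of Ppargc1a had 2 of 18 lower and 5 higher in KO at 22 °C (median 0.15 log2), beside 18% lower and 16.3% higher of all genes. Adrb3, the beta-adrenergic receptor of adipocytes, was at 56.0 RPKM in KO against 20.9 RPKM in Control, and Irf4, a partner of PGC-1 alpha in brown fat, at 51.5 against 5.57 RPKM. The cAMP-responsive factor gene Atf2 was 1.75-fold lower. At 24 h against 22 °C in KO, 2 of 17 were higher and 5 lower, beside 22.1% higher and 19.8% lower of all genes. Prkaca, the catalytic subunit of protein kinase A, was 1.77-fold higher. Other factors at respiratory genes had 3 of 13 lower (Ppara, Thra and Bcl6) and 4 higher in KO at 22 °C, beside the same shares of 18% and 16.3% of all genes. Ppara, the fatty acid receptor, was at 33.5 RPKM in KO against 98.8 RPKM in Control and Rxra, its partner, at 26.1 against 10.6 RPKM, while the thyroid hormone receptor gene Thra was 1.46-fold lower. Gabpb1, the partner subunit of Gabpa, was 1.47-fold higher in KO at 22 °C and 1.37-fold lower at 24 h than at 22 °C in KO, both opposite in direction to Gabpa, and Sp1 was 1.63-fold lower at 24 h in KO.

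Mitochondrial protein import had 14 of 27 members lower and 0 higher in KO at 22 °C, and 25 of 27 higher at 24 h in KO, with medians of -0.37 and 1.01 log2. In Control 14 of 27 were higher and 0 lower at 24 h than at 22 °C, beside 13.1% higher and 8.67% lower of all genes. The outer membrane translocase genes Tomm40l and Tomm5 were 2.54-fold and 2.84-fold lower in KO at 22 °C, and the carrier chaperone Timm9 2.23-fold. The matrix chaperones Hspd1 and Hspa9 were 3.35-fold and 2.77-fold higher at 24 h in KO. Fusion and fission genes had 6 of 11 lower and 0 higher in KO at 22 °C, including the fission gene Mtfp1 (3.40-fold lower) and the fusion genes Mfn1 (1.77-fold) and Opa1 (1.64-fold). At 24 h in KO 9 of 11 were higher, among them Mff, 1.86-fold, and Mfn2, 1.59-fold. These counts stand beside 18% of all genes lower in KO at 22 °C and 22.1% higher at 24 h in KO.

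The genes whose pattern over the 6 group means was nearest to that of a member were found among 6474 genes, by the root mean square difference of centred log2 means. For Esrra these were Mrpl28, Ndufs3, Foxred1 and Slc25a4, at distances of 0.03 to 0.05 log2. Mrpl28, of the mitochondrial ribosome, ran at 20.7, 48.5 and 47.5 RPKM in KO and at 51.5, 63.5 and 54.4 RPKM in Control over 22 °C, 24 h and 7 d. The other receptor had no such close neighbour among the genes searched, and the nearest to Esrrg (Qrsl1, Sco2, 3010033K07Rik and Sirt3) lay at 0.28 to 0.30 log2. The search took only genes averaging 5 RPKM or more. Esrrg averaged 3.69 RPKM over the 6 group means, so genes at its own level were not searched. Nearest to Ppargc1a were Rab3ip, Mfge8, Pctp and 4930506M07Rik at 0.18 to 0.22. Ppargc1b had Tmem38b at 0.06, followed by Hyou1, Rab3ip and Mir8108 at 0.14 to 0.15.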

How the data were processed

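Total RNA of brown fat was depleted of ribosomal RNA and made into TruSeq libraries, per the labels' protocols. The submitters' processing notes name STAR, featureCounts, edgeR and mm9, without versions. Per the file headers, the authors deposited for each gene its length, log2 fold change, log2 CPM, p-value and adjusted p-value, with 1 mean for each group. No header gives the unit of these deposited means. They were read as RPKM because the means, times gene length, resolved into whole reads over whole library totals. The sources used here do not say whether counting used strand.

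The authors' adjusted p under 0.05 is the main call. The log2 fold changes of the authors have normalization factors, and the deposited RPKM means do not. Their adjustment ran over 13414 genes.

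The means have 15 digits. Totals were found from genes with 1 read in 1 library, and the 4 whole counts behind each mean by lattice search. This solved 93.9% to 95.7% of means per group, and in 76711 simulated means 1 of 69363 solved had a wrong count. All 9 listed members and 10821 genes were recovered in all 24 libraries, while very abundant genes such as Ucp1 were not. This step was chosen after the data were seen, and SDs rest on it.

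Limma 3.58.1 (R 4.3.3) was run on log2(RPKM + 0.25) with libraries scaled by their median difference, over all recovered genes and 6 groups, with Benjamini-Hochberg adjustment. Simulated data with 200 changed of 10821 genes, for KO against Control at 22 °C, gave 83 of 100 recovered at 1 log2 and 42 of 100 at 0.5 log2. Fold changes by limma are on the log2(RPKM + 0.25) scale and understate low genes. Changes of the KO effect used the deposited log2 fold change over its normal score as error (p up to 0.9). On data simulated with the errors of KO against Control at 22 °C for 12710 genes, this recovered 86 of 100 differences of 2 log2 and 47 of 100 of 1 log2. It also called 7 unchanged genes. The simulated p-values came from the same normal score, so the simulation does not test whether errors rebuilt from edgeR p-values are right.

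The members, gene lists and tests were chosen with earlier results of these data known. Named were all members, Hdac3 and Ucp1. From each of 8 lists the rule took up to 3 genes with the smallest p at 22 °C between genotypes and 2 in KO over time, where the average log2 CPM was 1 or more. Nearest patterns were sought among genes that averaged 5 RPKM or more. Some genes that the rule takes are not reported here. Of the listed names, Prox1 and Slc4a1 were in no table. Alternatives were thresholds, filters, folds, scalings, pseudocounts and left-out libraries. Python 3.11.15 was used otherwise.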

Additional observations from a re-analysis of the deposited data

Results flagged for a closer look

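A library far from the other 3 of its group was found for 4 of 54 member and group pairs, where chance gives about 1 in 20. The gap to the nearest library over the range of the group was 0.933 for Esrra in Control at 22 °C, 0.903 for Gabpa in Control at 7 d, 0.879 for Polrmt in KO at 24 h and 0.908 for Polrmt in KO at 7 d. In each case the highest library stood apart.

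The KO effect differed between times for 7 members by a test of the difference itself. From 22 °C to 24 h it moved upward by 0.77 log2 for Esrra, 2.99 for Esrrg, 1.62 for Ppargc1b, 1.16 for Gabpa, 1.01 for Tfam, 0.71 for Tfb2m and 1.21 for Polrmt. From 22 °C to 7 d it moved upward by 0.91 log2 for Esrra, 2.51 for Esrrg, 1.22 for Ppargc1b, 0.76 for Gabpa, 0.73 for Tfam and 1.36 for Polrmt. These values share the libraries at 22 °C.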

How the results depend on the processing

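With at least a 1.5-fold change asked for, 5 members passed at 22 °C in place of 8, 0 at 7 d in place of 1 and 1 for 24 h against 22 °C in Control in place of 4. An adjusted p under 0.01 left 0 at 7 d and 1 in Control. Limma called 2 at 7 d, also with a pseudocount of 1, with a mean of at least 1 RPKM or without the macrophage-rich libraries, and 0 at 0.01, where Control had 2. With no scaling of libraries, limma called 3 members for 7 d against 22 °C in Control in place of 1. The other alternatives stayed within 1.5 times of each count. Leaving out each recovered library in limma gave 8 to 8 members at 22 °C, 4 to 5 at 24 h and 0 to 3 at 7 d between genotypes. Over 24 h it gave 8 to 8 in KO and 3 to 4 in Control, and over 7 d 7 to 8 in KO (7 to 8 higher, 0 to 1 lower) and 1 to 3 in Control (1 to 2 higher, 0 to 1 lower). For the change of KO effect the number called was 7 to 8 to 24 h (7 to 8 upward, 0 to 1 downward), 6 to 7 to 7 d, all upward, and 0 to 0 between them. Of 45 deposited log2 fold changes, ratios of means moved 11 by over 1 standard error, a pseudocount of 1 moved 12, subtracting the median of all genes moved 0, and none of these reversed a called change. Where calls changed the cause was not tested. No paired analysis was possible because recovered libraries cannot be tied to replicate numbers. Depth limits low genes, and Esrrg in KO at 22 °C rested on 37 to 73 reads per library.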
